A study of Mus musculus with 8 samples.

Results

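The genes described here encode enzymes that add methyl groups to lysine or arginine residues of histones or take them off, and the question asked of them is where peaks of V5-tagged ZGLP1, a zinc finger protein related to the GATA factors, lay around them. They were chosen by symbol, as the mouse protein-coding genes of the RefSeq annotation of GRCm38 whose symbol starts with Kmt, Kdm, Setd, Prmt or Nsd followed by a digit, leaving out Setd1b. The rule found 44 of 21900 protein-coding genes. The symbols follow enzyme names, and a few members act mainly on proteins other than histones.

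Histone methylation is written by SET domain enzymes on lysine and by PRMT enzymes on arginine, and it is erased by the LSD1-type oxidases and the JmjC oxygenases. Each enzyme has preferred residues: methylation of H3K4 and H3K36 accompanies active promoters and transcribed gene bodies, and methylation of H3K9 and H3K27 accompanies repression. Primordial germ cells rebuild these marks on a large scale before they enter meiosis or spermatogenesis, and several members, such as Prmt5, Kdm1b and Kdm2b, are known for roles in germ cells, oocytes or Polycomb targeting.

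The series held 8 libraries from mouse cells labelled C57BL/6 x DBA2 in strain, all carrying Zglp1 with a V5 tag as an overexpression construct switched on with doxycycline (Dox). The 5 ChIP libraries were precipitated with a rabbit polyclonal antibody against V5. Cultured counterparts of primordial germ cells (PGCLCs), derived from stem cells, gave 4 of them: culture day 7 (c7) with Dox alone, culture day 8 (c8) with Dox alone, c7 with Dox and retinoic acid (RA), and c8 with Dox and RA, treated from culture day 3 and sorted for the SC reporter and mCherry. Embryonic stem cells (ESCs) treated with Dox and RA for 24 h and sorted for mCherry gave 1 ChIP library, and 3 input libraries came from c8 PGCLCs with Dox, c8 PGCLCs with Dox and RA, and ESCs. Each group had 1 library and all carried the tagged factor, and no group without the tagged factor was analysed here. The labels name the ESC lines H18 BVSC and BDF1-2-1 BVSC without saying which gave a library or whether a line is 1 clone.

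One list for the whole series gave 32927 summits, each a single position on the genome. A summit carries no library, height or p-value, so the groups could not be compared with each other, the read depth behind a summit is unknown, and where no summit is listed a gene may lack the factor or fall under the threshold that the authors used. Distances are in bases on GRCm38 (mm10), to the lower or the upper end of the annotated gene. For 34 members a table of RefSeq start sites also gave the strand, and for them a position before the start carries a minus sign. No member has more than 1 set of measurements, so the results are counts and distances set beside those of all protein-coding genes, with no test of a difference.

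Nearly all of these genes had a ZGLP1 summit at one of their ends. A summit lay within 1 kb of an end in 40 of 44 members (90.9%), beside 52.9% of all protein-coding genes, and within 10 kb in 43 of 44 (97.7%), beside 66.6%. The median distance of the closest summit was 191 bases for the members and 657.5 bases for all protein-coding genes. The member just inside the 1 kb limit was Setd4, at 840 bases, and the one just outside was Prmt8, at 1491 bases. At 10 kb Kdm4c lay just inside, at 9624 bases, and Kdm5d outside, at 638399 bases.

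**Figure D1:**
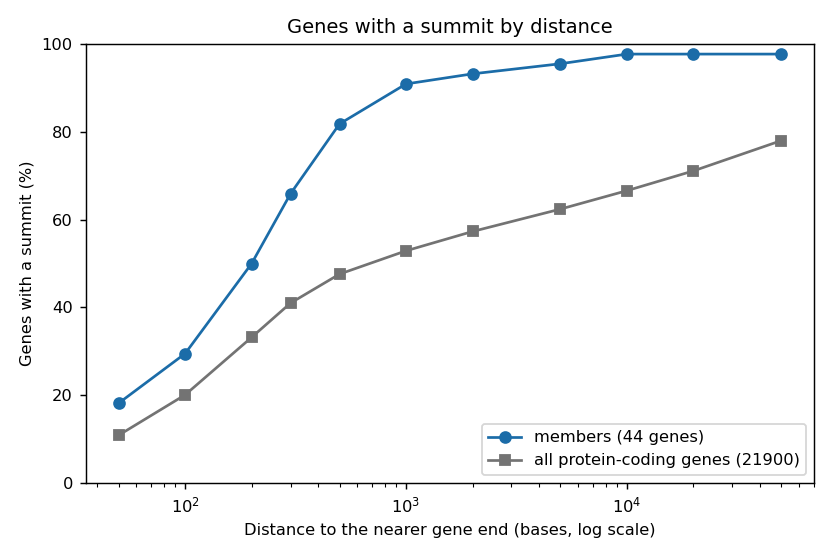
Share of genes with a summit (%, vertical axis) within a given distance of the nearer gene end (bases, log scale), for the 44 members and for all 21900 protein-coding genes. The member curve lies above the other at every distance plotted, from 18.2% beside 10.9% at 50 bases to 97.7% beside 78.0% at 50000 bases.

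Members also had more summits each. The median was 3 summits within 10 kb of an end, beside 1 for all protein-coding genes, and at least 3 were found at 26 of 44 members (59.1%), beside 25.8%. At least 2 within 1 kb were found at 18 of 44 (40.9%), beside 17.8%. Together the members had 124 distinct summits within 10 kb of their ends, from 0 at Kdm5d to 8 at Nsd1, of which 60 lay within 1 kb. Of the 124, 35 were nearer to an end of another protein-coding gene than to the member. Members were long, with a median of 48595 bases beside 17146 for all protein-coding genes. Among protein-coding genes at least as long as the shortest member 59.5% had a summit within 1 kb and 74.3% within 10 kb. That cut, at 4896 bases, does not match the genes to the members in length. The number of summits per gene was not compared at matched length.

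**Figure D2:**
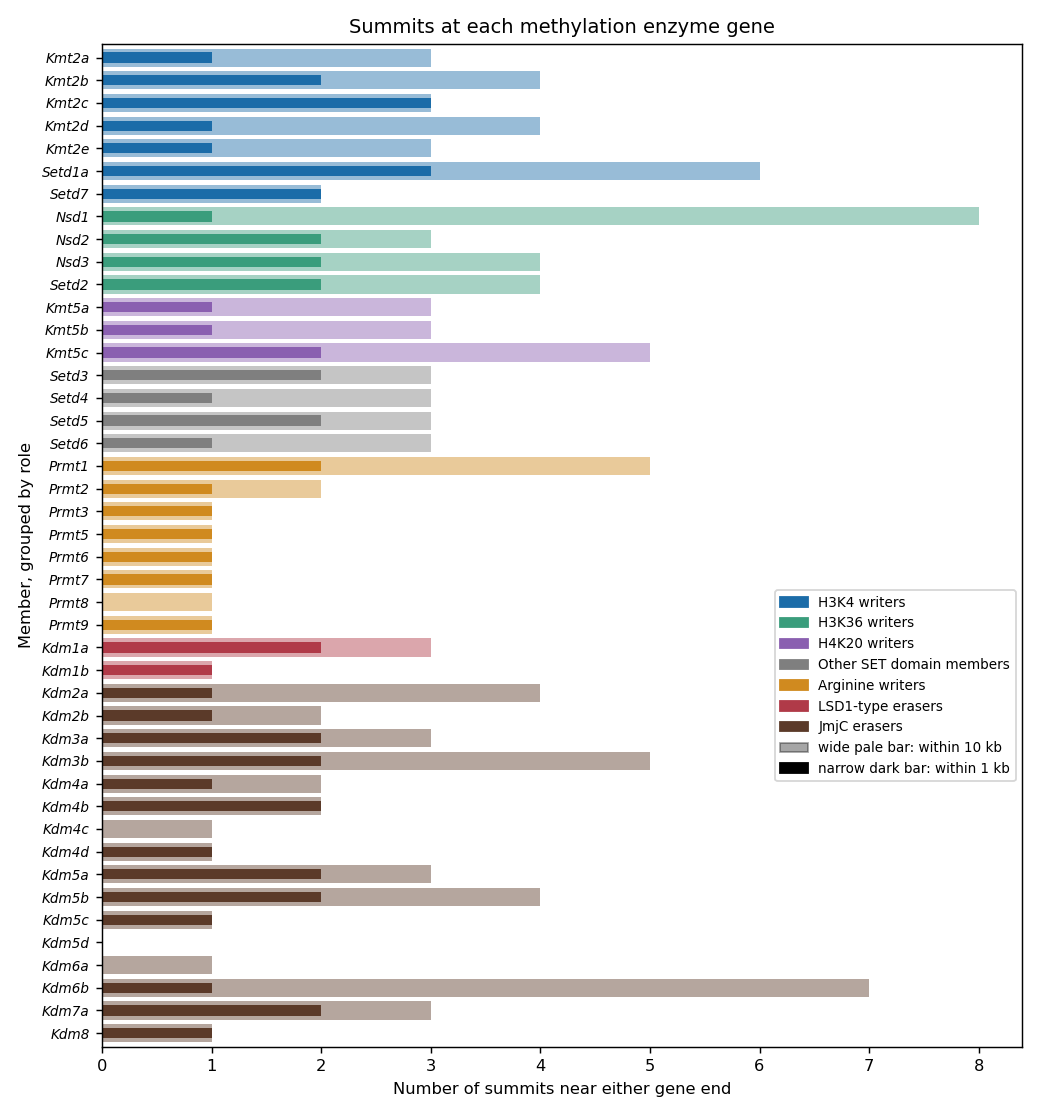
Number of summits (horizontal axis) within 10 kb (wide pale bars) and within 1 kb (narrow dark bars) of either end of each of the 44 members, coloured by role. Nsd1, Kdm6b and Setd1a reach 8, 7 and 6 summits within 10 kb, most arginine methyltransferase genes have 1, and Kdm5d has none.

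Summits sat at the starts of the genes rather than at their ends. Among the 34 members with a known strand, 29 (85.3%) had a summit within 1 kb of the start, beside 51.5% of 17492 protein-coding genes with a known strand, and 2 (5.88%) within 1 kb of the end, beside 6.2%. The 2 were Setd1a and Kmt2d. At the end of Setd1a the summit lay 437 bases outside the gene and 50 bases from an end of its neighbour Hsd3b7. At the end of Kmt2d it lay 369 bases outside, where it was also within 1 kb of Prkag1. Around the start the closest summits of the 29 members were divided into 15 before it and 14 after it, where 37.0% of those of all genes lay before it. Their median distance from the start was 125 bases, beside 134 bases for all genes.

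**Figure D3:**
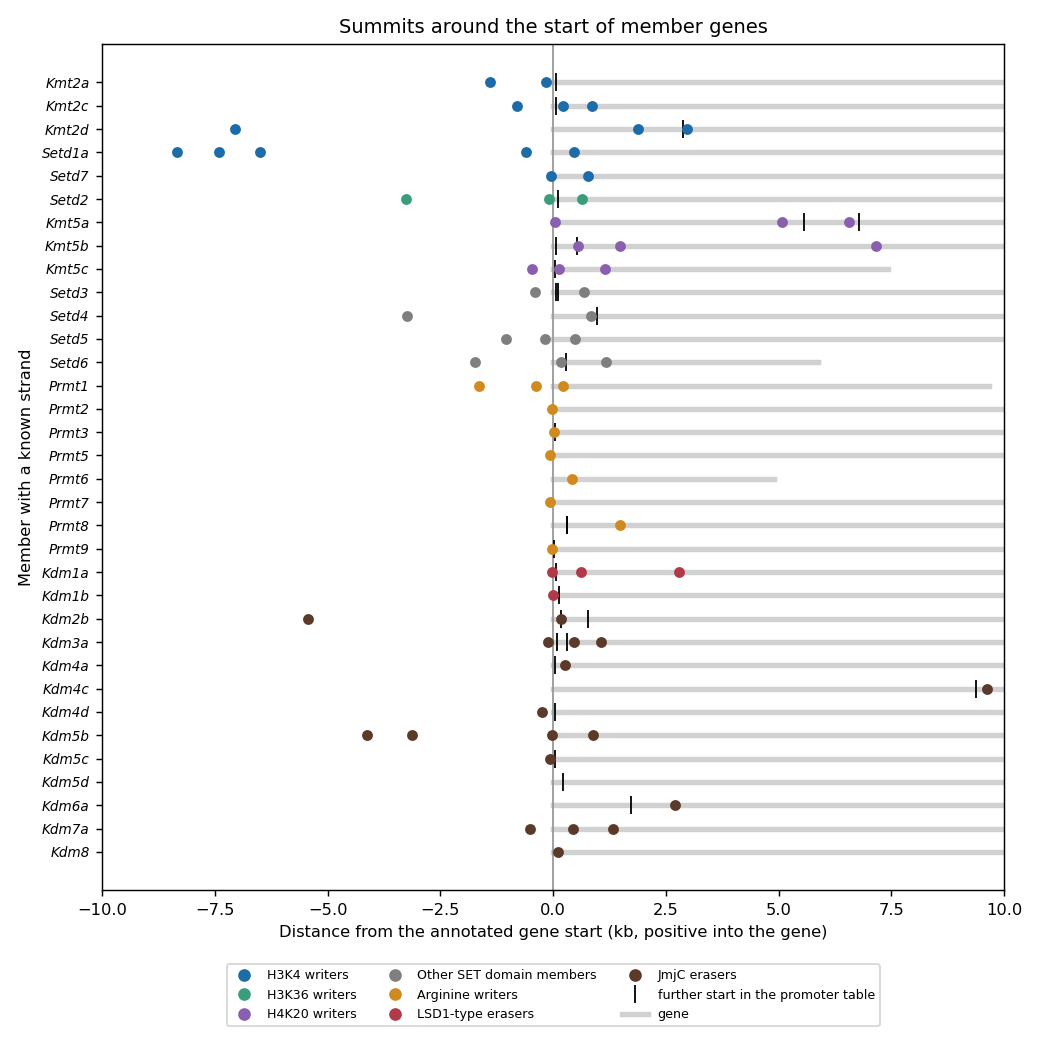
Summits (points) within 10 kb of the annotated start of the 34 members with a known strand, by distance from the start (kb, positive into the gene), coloured by role, with the gene as a grey bar and further starts of the promoter table as black ticks. Most rows have a point close to 0, and the points of Kmt2d, Kdm4c and Kdm6a lie beside a later start of the same gene.

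The windows around these starts can be read directly, and the runs printed here show members with a summit in the window beside members without one. Each run is the 250 bases before a start of the RefSeq table (build GRCm38.p6), 5′ to 3′ on the strand of the gene. Capitals mark the letters GATA, their reverse complement TATC, and CGCG. Kdm5b, which removes methyl groups from H3K4, is on the plus strand at chr1:134559928-134560177, with its summit at base 230 of the run, 21 bases before the start:
Kdm5b: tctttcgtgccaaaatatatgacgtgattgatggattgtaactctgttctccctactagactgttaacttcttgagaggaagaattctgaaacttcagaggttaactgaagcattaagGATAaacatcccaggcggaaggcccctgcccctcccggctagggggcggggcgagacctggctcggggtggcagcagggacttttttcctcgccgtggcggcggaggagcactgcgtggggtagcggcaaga
Prmt5, the main enzyme of symmetric arginine dimethylation and needed in primordial germ cells, is on the minus strand at chr14:54517471-54517720, with its summit at base 173, 78 bases before the start:
Prmt5: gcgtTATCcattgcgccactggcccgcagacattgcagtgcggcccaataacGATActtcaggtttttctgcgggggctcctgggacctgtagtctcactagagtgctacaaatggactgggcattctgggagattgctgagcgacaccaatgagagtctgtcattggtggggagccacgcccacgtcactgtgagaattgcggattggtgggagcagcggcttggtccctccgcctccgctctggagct
Prmt8, a membrane-bound relative of Prmt1 known mainly from brain, is on the minus strand at chr6:127769156-127769405 and had no summit in the window:
Prmt8: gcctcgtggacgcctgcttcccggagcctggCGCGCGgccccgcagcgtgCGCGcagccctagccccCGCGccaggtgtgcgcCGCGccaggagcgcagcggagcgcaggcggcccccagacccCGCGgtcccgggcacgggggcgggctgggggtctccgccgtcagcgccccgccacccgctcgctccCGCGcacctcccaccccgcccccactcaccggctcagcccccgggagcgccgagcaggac

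The Kdm5b run holds 1 GATA site and no CGCG, the Prmt5 run 2 GATA sites and no CGCG, and the Prmt8 run no GATA site and 7 CGCG. These 3 runs thus differ in the direction opposite to the average window. Over all 21263 start windows of 300 bases (250 before and 50 after the start) of protein-coding genes, CGCG was found in 82.2% of those with a summit and 38.1% of those without, and GATA, on either strand, in 39.1% with a summit and 58.0% without. A match is a description of the letters in a window and not a binding site.

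Over the members, windows with and without a summit had similar medians of base composition. A summit lay inside 19 of 45 member windows (42.2%), beside 25.2% of all windows. A window without a summit inside can still have one close by, as at Kmt5c and Kmt2d, 90 and 96 bases after the start. Others, such as that of Kdm5d, have none near. The split is thus not one between starts with and without a nearby summit. The median number of CpG dinucleotides was 24 in the 19 member windows with a summit and 24.5 in the 26 without, whereas over all windows it was 24 with a summit and 7 without. The percentage of G and C had medians of 61.7 and 62.8 in the members and 63.0 and 53.3 over all windows. CGCG was found in 16 of 19 member windows with a summit (84.2%) and 19 of 26 without (73.1%). GATA was found in 9 of 19 (47.4%) and 11 of 26 (42.3%). Of the longer forms on either strand, AGATAA was in 0 of 19 and 4 of 26, TGATAA in 1 and 1, AGATAG in 2 and 1, and TGATAG in 0 and 3. These longer forms contain GATA and are part of its count, and over all windows they were found in 9.65%, 7.6%, 7.92% and 6.51%. In the same order, the shares over all windows were 4.02%, 2.48%, 4.86% and 3.47% with a summit, and 11.6%, 9.33%, 8.95% and 7.54% without.

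Other common promoter letters were chosen after values were seen. The GC box letters GGGCGG were in 66.7% of member windows and 46.2% of all, CCAAT in 42.2% and 38.2%, CCGGAA, the core of ETS factor sites, in 24.4% and 18.7%, and the TATA box letters TATAAA in 4.44% and 12.6%. Several genes give more than 1 window and overlapping windows share bases, so the 45 windows stand for 34 genes.

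**Figure D4:**
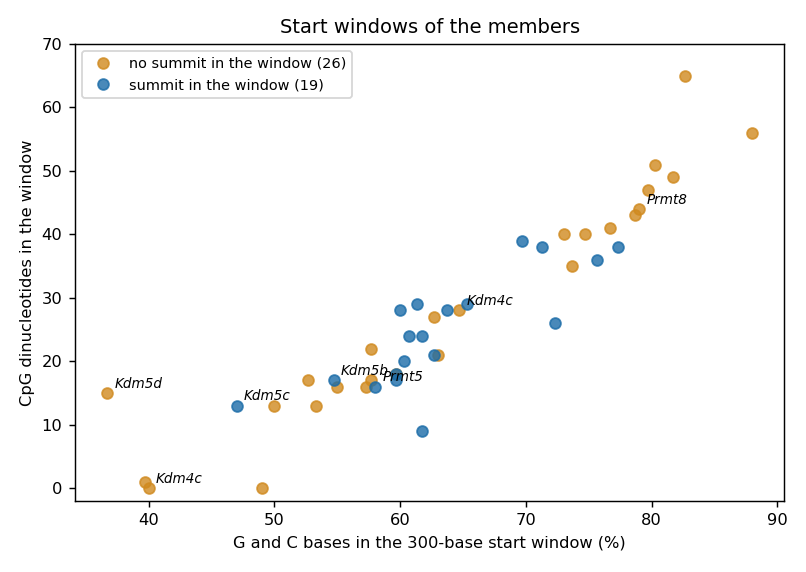
CpG dinucleotides (vertical axis) against the percentage of G and C (horizontal axis) in the 45 start windows of 300 bases, blue with a summit inside and orange without. Windows with a summit span 9 to 39 CpG, and windows without one reach both lower, at the first start of Kdm4c with 0, and higher, to 65.

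The 7 genes grouped here as H3K4 writers all had a summit within 1 kb, beside 52.9% of all protein-coding genes. They had 2 to 6 each within 10 kb, and the only one of Kmt2d within 1 kb lay nearer to Prkag1. Setd1a, the catalytic subunit of a complex that places H3K4 trimethylation at promoters (chromosome 7, 127777389 to 127800122), had 6. They lay at 127769042, 127769976 and 127770886, which are nearer to Fbxl19 and Orai3, at 127776780 and 127777851, which are 609 bases before and 462 bases after its start, and at 127800559 beside Hsd3b7. Only the 2 at the start thus lay nearest to Setd1a itself. Setd1a was also 1 of 2 members with a summit within 1 kb of both ends, and the other was Nsd3. At the upper end of Nsd3 the summit lay nearer to Plpp5.

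The MLL family genes differed in where these summits lay. Kmt2a, the founding MLL gene needed for Hox expression, had its closest summit 153 bases before the start. Kmt2b, its close relative needed in oocytes, had summits 89 bases outside and 862 bases inside its upper end, the first also within 1 kb of Zbtb32. Kmt2c, which acts with Kmt2d at enhancers, had 3 within 1 kb of its start, at 806 bases before it and 216 and 867 bases after it, the joint highest number within 1 kb of any member together with Setd1a. Kmt2d had none within 1 kb of its outermost start, but its start in the RefSeq table lies 2872 bases further in, and a summit lay 96 bases after that start. Kmt2e, a divergent relative grouped with the writers by its name, had 3 in a row inside its lower end, at 207, 1451 and 1910 bases. Setd7, which places a single methyl group on H3K4 and on other proteins, had 2, at 47 bases before and 775 bases after its start.

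Genes for H3K36 methylation had 4 of 4 with a summit within 1 kb, beside the same 52.9%, and a median of 4 within 10 kb. Nsd1, which places dimethylation on H3K36, had 8, the most of any member (chromosome 13, 55209782 to 55318325). Of these, 4 lie at or near its lower end, at 55205196, 55210121, 55211074 and 55212586, and the other 4 lie beyond its upper end at 55320345, 55320874, 55322066 and 55327828. Those 4 are nearer to the neighbouring genes Rab24, Prelid1 and Mxd3, the third of them 11 bases from an end of Prelid1. Nsd2 had 3, the closest at 574 bases, which lay nearer to Gm52782, and Nsd3 had 4, the closest at 207 bases. Of those of Nsd3, the summits at 25597104 and 25720197 were nearer to Letm2 and Plpp5. Setd2, which places trimethylation on H3K36, had 4, including 100 bases before and 643 bases after its start, and the one beyond its end was 40 bases from an end of Nbeal2.

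All 3 H4K20 methyltransferase genes had a summit within 1 kb, again beside 52.9%. Kmt5a, which places the first methyl group, had 3 summits, 31, 5079 and 6547 bases after its outermost start, and its RefSeq starts further in lie close to the last 2, at 490 and 227 bases. Kmt5b, which adds the further methyl groups, had 3, and the closest lay 14 bases after its second table start. Kmt5c, its paralogue (chromosome 7, 4740092 to 4747514), had 5. They lay 478 bases before and 125 and 1142 bases after its start, and at 4752528 and 4753150 beyond its end, where Cox6b2 is nearer.

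The remaining SET domain genes, Setd3, Setd4, Setd5 and Setd6, had 3 summits each within 10 kb. Setd9 was not matched in the gene table and is not analysed here. Setd3, which methylates a histidine of actin, had its closest at 402 bases, also within 1 kb of Ccnk. In Setd4 the closest was 840 bases inside the outermost start and 136 bases before its table start. In Setd5, which encodes a chromatin regulator linked to intellectual disability, summits lay 1050 and 175 bases before and 480 bases after the outermost start, whereas its table start lies 27673 bases further in and had no summit nearer than 27193 bases. Setd6, a short gene of 5874 bases whose product methylates the NF-kappaB subunit RelA, had its closest at 175 bases, also within 1 kb of Ndrg4.

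Genes for arginine methylation had a summit within 1 kb in 7 of 8, beside 52.9% of all protein-coding genes. Their median within 10 kb was 1, the lowest median of the writer groups, and whether it differs from theirs was not tested. Carm1, an arginine methyltransferase gene that the symbol rule does not catch, had 6. Prmt3, Prmt5, Prmt6, Prmt7 and Prmt9 each had a single summit within 10 kb, at 26, 78, 421, 75 and 23 bases from the start. Prmt6, which places asymmetric dimethylation on H3R2, is the shortest member, with 4896 bases. Prmt2 had 2, at 24 bases before its start and 3404 bases outside its end. Prmt1, which makes most asymmetric dimethylarginine in cells (chromosome 7, 44976755 to 44986420), stood apart with 5. They lay 227 bases after and 393 and 1641 bases before its start, and beyond its end at 44970568 and 44974716, nearer to Cpt1c.

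Prmt8 was the only arginine methyltransferase gene with no summit within 1 kb. Its closest lay 1491 bases after the outermost start and 1179 bases after a start of the RefSeq table, and 2 more lay deep inside the gene, 61022 and 68095 bases after the start. Its start window is rich in CpG, with 44 in 300 bases, and the windows of the other arginine methyltransferase genes hold 16 to 39. Of these, the window of Prmt7 with 39 has a summit inside, as does that of Prmt5 with 16, whereas those of Prmt1 with 17 and Prmt6 with 16 have none.

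Both LSD1-type demethylase genes had a summit close to the annotated start. Kdm1a, which encodes LSD1 and removes methyl groups from H3K4, had 3, at 17 bases before and 625 and 2794 bases after its outermost start, and the first was 81 bases before its table start. Kdm1b, needed in growing oocytes for the DNA methylation of imprinted genes, had 1, 2 bases before its outermost start and 128 bases before its table start. Measured to the outermost ends it was the closest of any member. Measured to table starts many members had closer ones, the closest being those of Kdm2b, Prmt3 and Kmt5b, at 2, 13 and 14 bases. The Kdm1b summit was also within 1 kb of Tpmt, whose gene lies next to Kdm1b.

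Among the JmjC demethylase genes 13 of 16 had a summit within 1 kb, beside 52.9% of all protein-coding genes, and 15 of 16 within 10 kb, beside 66.6%, with 0 to 7 each. Kdm6b, which removes H3K27 methylation and responds to signals (chromosome 11, 69398508 to 69420367), had 7 within 10 kb. Of these, 6 lay inside the gene, 3 of them 399, 1366 and 2742 bases from its upper end. Together with 1 further summit over 10 kb from both ends there were 7 inside a gene of 21860 bases, or 32.0 per 100 kb. Its X-linked relative Kdm6a (chromosome X, 18160862 to 18279936) had 1 summit in all, 2708 bases after the outermost start and 995 bases after its table start.

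Kdm3b, an H3K9 demethylase gene (chromosome 18, 34777008 to 34839370), had 5 within 10 kb of its ends and 6 inside, spread over 37757 bases. The closest lay 173 bases outside its lower end, and the one beyond its upper end, at 34840573, was 16 bases from an end of Reep2. Its relative Kdm3a had 3, all within 1058 bases of its start. Kdm2a, which binds unmethylated CpG and removes H3K36 methylation, had 4, of which 3 lay 567, 1691 and 2898 bases inside its upper end, but all 4 were nearer to an end of 9430078G10Rik or Grk2. Kdm7a had 3, the closest 448 bases after its start, and Kdm8 had 1, 111 bases after its start.

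Kdm2b was singled out after its values were seen. It encodes the relative of Kdm2a that brings Polycomb complex PRC1 to CpG islands, and it had 2 summits within 10 kb of its ends but 13 inside the gene (chromosome 5, 122870664 to 122989270), placing it 24th among 21900 protein-coding genes in the number inside. It is 118607 bases long, which gives 11.0 per 100 kb. Of the 13, 12 lay over 10 kb from both ends, and neighbouring ones were 539 to 20795 bases apart, with a median of 7915.5. Its outer start had a summit 169 bases after it. A second group of starts in the RefSeq table lies 88903 and 88920 bases further in, and there 3 summits stood together at 122899600, 122900139 and 122900728, the middle one 211 bases after the start at 122900350. The other 9 lay over 10 kb from every start of the table.

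Other members also had summits deep inside, with at most 3 in each. Over the 38 members longer than 20 kb, 13 (34.2%) had a summit over 10 kb from both ends, beside 25.9% of such protein-coding genes. There were 27 such summits in all, 12 of them in Kdm2b, and Kdm3b came next with 3.

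**Figure D5:**
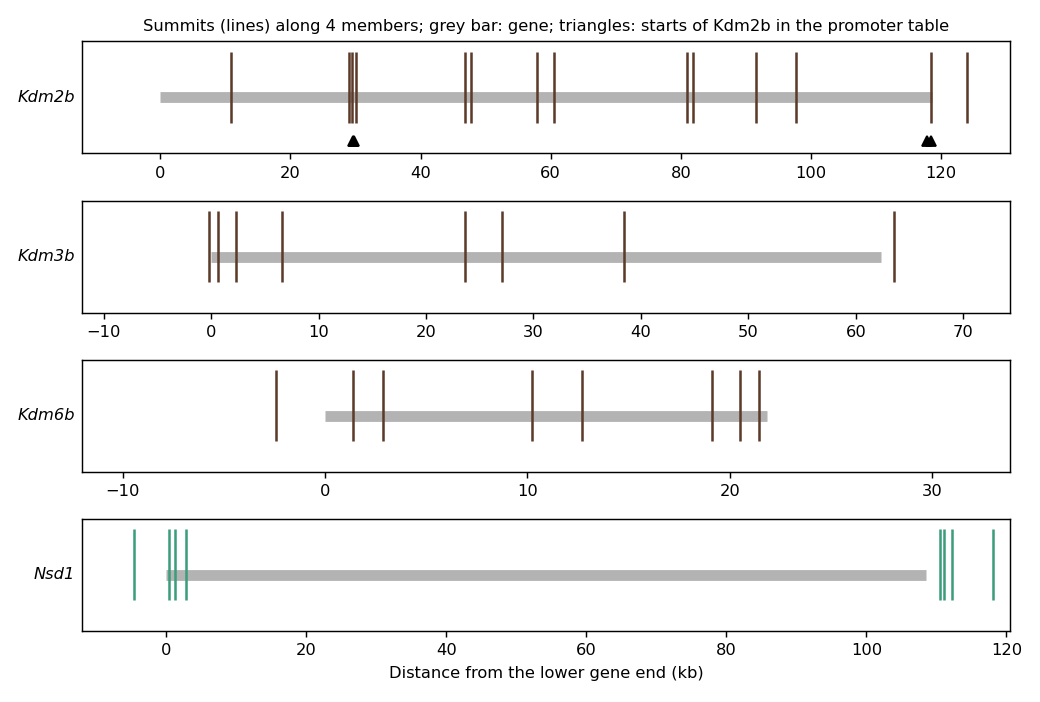
Summits (vertical lines) along Kdm2b, Kdm3b, Kdm6b and Nsd1 and up to 10 kb beyond, by distance from the lower gene end (kb), with the gene as a grey bar and the table starts of Kdm2b as triangles. Summits run through the length of Kdm2b and Kdm6b, whereas those of Nsd1 stand in 2 groups of 4 at or beyond its ends.

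Members of the Kdm4 and Kdm5 families differed among themselves. In the Kdm4 family, which removes trimethylation from H3K9 and, except for Kdm4d, from H3K36, Kdm4a, Kdm4b and Kdm4d had their closest summits at 258, 128 and 241 bases. That of Kdm4d was also within 1 kb of Cwc15. Kdm4c, their paralogue, had none within 1 kb of its ends, but its 1 summit lay 242 bases after its second table start. Its outermost start is on the plus strand, with the run chr4:74242247-74242496, and the second one, 9382 bases further in, with the run chr4:74251629-74251878. The pair is printed because the summit lies near the second start and 9624 bases from the outermost one, though inside neither window:
Kdm4c outermost start: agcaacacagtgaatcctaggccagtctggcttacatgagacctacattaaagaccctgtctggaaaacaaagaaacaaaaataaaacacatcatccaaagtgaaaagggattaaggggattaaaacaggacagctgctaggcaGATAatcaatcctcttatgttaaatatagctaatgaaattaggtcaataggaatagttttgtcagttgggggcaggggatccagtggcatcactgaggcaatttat
Kdm4c second start: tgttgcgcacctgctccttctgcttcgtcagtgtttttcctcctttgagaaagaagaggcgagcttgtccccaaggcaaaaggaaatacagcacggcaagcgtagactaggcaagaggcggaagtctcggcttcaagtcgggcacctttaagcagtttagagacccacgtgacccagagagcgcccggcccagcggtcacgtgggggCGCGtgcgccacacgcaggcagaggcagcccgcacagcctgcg

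The first window of Kdm4c had 0 CpG and 40.0% G and C in 300 bases, and the second had 28 CpG and 64.7%. The printed run of the outermost start holds 1 GATA site, and that of the second holds 1 CGCG.

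The Kdm5 family removes methylation from H3K4 and has a gene on X and one on Y. Kdm5a had 3 summits, the closest at 207 bases and nearer to Ccdc77. Kdm5b had 4, at 4123, 3121 and 21 bases before and 887 bases after its start, the last nearer to Mgat4e. Kdm5c on X (152233198 to 152279102) had 1, 82 bases before its outermost start, and Kdm5d on Y (897566 to 943813) had none, its nearest lying 638399 bases away. Among all protein-coding genes a summit lay within 1 kb of 22.7% of the 966 on X and 0.391% of the 256 on Y. The number of X and Y chromosomes in the cells was not used here, and its part in the difference between Kdm5c and Kdm5d was not tested.

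The start windows of this X and Y pair are printed to show how far the paralogues differ in sequence before their starts. Both are on the plus strand, Kdm5c at chrX:152232977-152233226, with its summit at base 140, 111 bases before the table start, and Kdm5d at chrY:897538-897787:
Kdm5c: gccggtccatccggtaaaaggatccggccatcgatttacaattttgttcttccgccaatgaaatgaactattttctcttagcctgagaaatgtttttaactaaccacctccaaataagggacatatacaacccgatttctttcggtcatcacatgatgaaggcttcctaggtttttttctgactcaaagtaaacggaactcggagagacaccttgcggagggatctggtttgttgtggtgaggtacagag
Kdm5d: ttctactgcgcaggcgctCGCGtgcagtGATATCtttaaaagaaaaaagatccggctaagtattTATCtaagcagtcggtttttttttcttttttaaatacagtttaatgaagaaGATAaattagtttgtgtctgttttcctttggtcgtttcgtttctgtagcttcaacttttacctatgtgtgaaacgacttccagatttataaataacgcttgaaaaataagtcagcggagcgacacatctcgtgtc

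The Kdm5c run holds no GATA site and no CGCG, and the Kdm5d run 4 GATA sites, counting both strands, and 1 CGCG. Their windows hold 13 and 15 CpG.

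Some summits cannot be given to 1 gene. For 12 of the 40 members with a summit within 1 kb (30.0%), the closest was also within 1 kb of an end of another protein-coding gene, beside 25.0% of all genes with such a summit. Besides those named above, Kdm6b shared its closest summit with Dnah2 and Prmt7 with Slc7a6os.

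Related enzymes that the symbol rule does not catch were counted in the same way. Of 28 methylation enzyme genes with other names, 25 (89.3%) had a summit within 1 kb and 27 (96.4%) within 10 kb, with a median of 2 summits. Over all protein-coding genes the shares were 52.9% and 66.6%, and the median was 1. The closest were those of Riox1, Ezh1 and Suv39h2, at 12, 17 and 32 bases, where Ezh1 encodes a catalytic subunit of Polycomb complex PRC2 and Suv39h2 an H3K9 methyltransferase. Ehmt2, the H3K9 methyltransferase G9a, had the most, 8. Those without one within 1 kb were Smyd1, a muscle gene, Hr, a gene of hair follicles, and Uty, the Y-linked relative of Kdm6a, which was the only one with none within 10 kb.

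Subunits that work with these enzymes also had summits. Of 25 genes, 22 (88.0%) had one within 1 kb and 25 of 25 within 10 kb, with a median of 3. These stand beside the same 52.9% and 66.6% of all protein-coding genes and their median of 1. Rcor1, the partner of LSD1, and Men1, the partner of Kmt2a and Kmt2b, had theirs at 1 and 2 bases, followed by Rbbp5, of the core shared by all MLL-type complexes, at 10 bases. Fbxl19, which lies next to Setd1a, had 13 within 10 kb. Rcor2, Skp1 (listed as Skp1a) and Dpy30 had none within 1 kb.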

How the data were processed

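Per the labels, 5 ChIP and 3 input libraries were sequenced. The submitters' processing notes name, without settings, MACS2 2.1.1.20160309 and HOMER 4.9.1, the aligner Bowtie 1.1.2, the trimmers cutadapt 1.9.1 and Trim Galore 0.4.1, SAMtools 1.3 with Picard 2.1.0 and bedtools, and the build mm10. The authors deposited summit positions in bases, with no score or library. How peaks of the libraries were joined, and the threshold, are not given in the sources used here.

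Gene ends came from RefSeq for GRCm38.p6, and strands and start windows from a RefSeq promoter table of that build, which matched 34 of 44 members. Overlapping windows of opposite strands held each other's reverse complement in 803 of 803 pairs. A summit counted for every gene with an end within 1 kb or 10 kb. Members and lists were chosen with earlier results of these data known. All members are named. Described most fully are the 6 with most summits within 10 kb, those without one, members on X or Y, and paralogues that differ. Distances and counts were tested on simulated data. The software was SciPy 1.17.1, pandas 2.3.3 and numpy 2.4.6 under Python 3.11.15, with plots by matplotlib 3.10.9.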

Additional observations from a re-analysis of the deposited data

How the results depend on the processing

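The share of members with a summit lay 38.0 percentage points above that of all protein-coding genes at 1 kb and 31.2 at 10 kb. Of 24 alternatives over all results, 18 were counted as the same, 4 as moved in size with the direction kept, and 2 as reversed. For each distance the exact 95% binomial interval of the main member share was taken, less the main share of all protein-coding genes. A difference inside these limits (25.4 to 44.5 points at 1 kb and 21.4 to 33.4 at 10 kb) counted as the same. The GATA share of member windows was judged by the interval of that share itself. Such intervals treat members or windows as independent draws. Medians of summits per member were judged by their ratio to the main value. At a distance of 50 kb the difference was 19.7 points and the median of summits per member 6, where all protein-coding genes had 3. With gene ends only, the sign turned, to -0.315 points at 1 kb and -3.12 at 10 kb, and the cause was not tested. With starts only it was 33.8 points at 10 kb. Without the members of X and Y it was 33.4 points at 10 kb (100% beside 66.6%), but genes of X and Y stayed among all protein-coding genes. Of autosomal protein-coding genes alone, 69.1% had a summit within 10 kb. Leaving out these members was chosen after seeing the data. So were genes at least as long as the shortest member (31.4 points at 1 kb and 23.4 at 10 kb) and any table start (35.5 and 30.4). With summits within 1 kb merged, the median per member was 2 in place of 3, beside 1 for all protein-coding genes in both. Counting each summit for its nearest gene alone gave 36 of 44 members (81.8%) at 1 kb, beside 48.9% of all protein-coding genes. At 10 kb it gave 40 of 44 (90.9%), beside 58.7%. Since the depth is unknown, a missing summit is not shown to be missing binding. No paired analysis was possible because summits carry no library name.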

Other observations

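Genes for histone acetylation enzymes, the Kat acetyltransferases and the Hdac and Sirt deacetylases, were counted in the same way. A summit lay within 1 kb of an end in 20 of 26 (76.9%), beside 52.9% of all protein-coding genes. Within 10 kb there was one in 24 of 26 (92.3%), beside 66.6%, with a median of 2 summits, beside 1. Sirt3, Sirt4 and Kat14 had the closest, at 27, 38 and 50 bases, and Sirt4 had the most, 9. Kat2b, Kat5 and Kat6b fell just outside the 1 kb limit, at 1009, 1054 and 1055 bases. The class I deacetylase genes Hdac1, Hdac2, Hdac3 and Hdac8 had theirs at 148, 168, 87 and 111 bases. The class IIa deacetylase genes differed among themselves. Hdac5 had its closest at 148 bases and Hdac7 at 4353 bases with 3 within 10 kb, and Hdac4 and Hdac9 had none within 10 kb, with the closest at 14821 and 129926 bases. Whether these shares differ from those of the methylation enzymes was not tested.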
